A study of Mus musculus with 8 samples.

Results

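The genes described here encode receptors for serotonin, dopamine, noradrenaline, acetylcholine, histamine, adenosine and cannabinoids in the mouse hypothalamus. They were taken by name from these receptor families, by a rule that uses no measured value but was written with earlier results of these data known, and number 37 of the 45706 genes in the count table. There were 11 serotonin, 3 dopamine, 6 adrenergic, 5 muscarinic, 5 nicotinic, 3 histamine and 3 adenosine receptor genes, and 1 cannabinoid receptor gene. RNA was measured by translating ribosome affinity purification (TRAP), in which ribosomes with a GFP-tagged RpL10a subunit are pulled from homogenised tissue with anti-GFP antibodies. The immunoprecipitate (IP, 4 libraries) holds RNA bound to tagged ribosomes, and the input (4 libraries) holds RNA of the whole homogenate. Both groups shared 1 genotype: the mice were Mfffl/fl, had the Cre driver AgRP-IRES-Cretg/wt and the ribosome tag RpL10a-GFPfl/wt, were random-fed and were aged 11 to 12 weeks. Each library was made from a pool of 3 mice of mixed sex, and the tissue was the dissected arcuate part of the hypothalamus. Cre from the Agrp locus drives both the deletion of Mff, a mitochondrial fission factor, and the tagged ribosome, so tagged cells are those that have expressed Agrp. Mice without the deletion were not analysed here, so the values describe animals whose AgRP neurons lack Mff and say nothing of what the deletion changes.

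AgRP neurons of the arcuate nucleus promote feeding and are reached by serotonin, noradrenaline, dopamine, histamine and acetylcholine fibres. Most receptors for these transmitters are G protein-coupled. Those coupled to Gi/o lower cyclic AMP and open potassium channels, those coupled to Gs raise cyclic AMP, and those coupled to Gq release calcium through phospholipase C. Nicotinic receptors and the serotonin receptor subunit Htr3a instead form ligand-gated cation channels. Adenosine and endocannabinoid receptors of the Gi/o type commonly sit on nerve terminals, where they lower transmitter release.

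Start-site sequences are shown for the 3 genes with the smallest p-values among those higher in IP and for Htr2c, the lower gene with the smallest p-value, chosen from the results below. They come from RefSeq on GRCm38.p6, which has an entry for 31 of the 37 genes, and each runs 5′ to 3′ on the gene's strand from 250 bases before the start to 50 after it. Capitals mark a GC box (GGGCGG or, on the other strand, CCGCCC) or a TATA box (TATAAA or TTTATA). Htr1a lies at chr13:105443443-105443742 on the plus strand, Htr1b at chr9:81633783-81634082 on the minus strand, Hrh3 at chr2:180104358-180104657 on the minus strand and Htr2c at chrX:146962263-146962562 on the plus strand.
Htr1a promoter: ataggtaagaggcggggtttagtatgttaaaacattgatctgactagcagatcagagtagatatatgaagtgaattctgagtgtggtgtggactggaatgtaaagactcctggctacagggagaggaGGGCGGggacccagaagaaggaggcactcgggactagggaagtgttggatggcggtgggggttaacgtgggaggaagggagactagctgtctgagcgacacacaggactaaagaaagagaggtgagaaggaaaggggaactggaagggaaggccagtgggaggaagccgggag
Htr1b promoter: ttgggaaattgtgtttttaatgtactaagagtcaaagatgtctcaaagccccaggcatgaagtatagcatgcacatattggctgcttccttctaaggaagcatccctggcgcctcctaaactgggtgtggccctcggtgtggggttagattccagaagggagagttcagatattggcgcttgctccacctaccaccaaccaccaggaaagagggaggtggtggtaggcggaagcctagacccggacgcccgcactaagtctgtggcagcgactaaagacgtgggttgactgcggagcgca
Hrh3 promoter: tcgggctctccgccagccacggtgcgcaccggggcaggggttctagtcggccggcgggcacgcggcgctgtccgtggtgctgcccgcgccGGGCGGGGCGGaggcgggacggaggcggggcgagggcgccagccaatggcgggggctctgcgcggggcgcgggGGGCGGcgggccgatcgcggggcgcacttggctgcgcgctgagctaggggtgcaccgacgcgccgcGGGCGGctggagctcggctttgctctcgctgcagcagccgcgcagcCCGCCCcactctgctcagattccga
Htr2c promoter: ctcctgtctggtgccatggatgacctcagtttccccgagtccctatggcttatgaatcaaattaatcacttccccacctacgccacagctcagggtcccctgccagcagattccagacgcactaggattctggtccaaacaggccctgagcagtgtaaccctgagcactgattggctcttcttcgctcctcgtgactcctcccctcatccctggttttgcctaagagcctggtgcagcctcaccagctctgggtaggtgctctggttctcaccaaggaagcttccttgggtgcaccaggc
Hrh3 had 5 GC box matches, 47 CpG dinucleotides and 79.0% G and C in its 300 bases, and more CpGs than 98.5% of the 32544 promoters of the same length. Htr1a had 1 GC box match and 7 CpGs, equal to the median of all promoters. Htr1b, with 11 CpGs, and Htr2c, with 5, had no GC box match. A GC box was present in 35.9% and a TATA box in 13.6% of all promoters, and none of the 4 windows held a TATA box. These matches describe the letters only.

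Library totals were 39.9 to 64.8 M estimated counts in IP and 44.1 to 74.6 M in input (M, mega), and 1 CPM (a gene's counts per M counts of its library) stood for 39.8 to 69.4 counts in IP and 43 to 74.2 in input. CPM values were scaled by TMM factors. The markers of the tagged cells were strongly higher in IP: Agrp averaged 842 ± 169.9 CPM in IP and 3.35 ± 0.740 CPM in input (SD, n = 4 each), with a log2 fold change of 7.98 ± 0.20 (SE), and Npy, the neuropeptide Y gene, had one of 7.14 ± 0.18. All 9 AgRP neuron markers were higher, and their summed level was 3119 to 4768 CPM in IP and 79.2 to 89.4 CPM in input. Unless an alternative is named beside it, each p-value comes from edgeR's quasi-likelihood test with Benjamini-Hochberg adjustment over 17000 tested genes. The test sets a difference against the spread between libraries of the same group, each made from a pool of mice.

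The receptor genes split in both directions, and more of them were lower than higher in IP. Of the 35 that could be tested, 6 passed an adjusted p of 0.05 as higher in IP (17.1% of them, beside 24.5% of all tested genes), 14 passed as lower (40.0%, beside 20.9% of all tested genes), and 15 did not pass. The higher genes were Htr1a, Htr1b, Htr6, Adra1a, Chrnb2 and Hrh3. The lower genes were Htr1d, Htr2a, Htr2c, Htr7, Drd2, Adra1b, Adra2a, Adra2c, Chrm2, Chrna3, Chrna5, Hrh2, Adora1 and Cnr1. Of these, Chrna3 and Chrna5 met the minimum-count filter in all 4 input libraries but not in all 4 IP libraries. They were tested because of their input level, so their part in the count of 14 gives no support for a direction. The median log2 fold change was -0.75 over the tested receptor genes and -0.01 over all tested genes. The first median includes Chrna3 and Chrna5, and also Htr3a and Drd5, which were likewise tested because of their input level. It therefore gives no support for a direction. The 4 IP libraries lay above the 4 input libraries in 6 of the 35 tested receptor genes (17.1%), the 6 higher ones, beside 24.1% of all tested genes. They lay below in 15 of the 35, the 14 lower ones and Chrm5, beside 24.0% of all tested genes. The separation comes from the same values as the calls, so it adds no support to them. IP is a share of bound RNA and input a share of tissue RNA, so a lower value cannot tell fewer cells with the transcript from less RNA per cell. Markers of other cells were present in IP as well, astrocyte markers with a summed level of 779.9 to 1045 CPM, against 2583 to 3222 CPM in input. How much of a receptor gene's IP level came from such cells was not tested. The plot of fold changes by receptor family shows that the serotonin, adrenergic, nicotinic and histamine families each held genes of both directions.

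**Figure D1:**
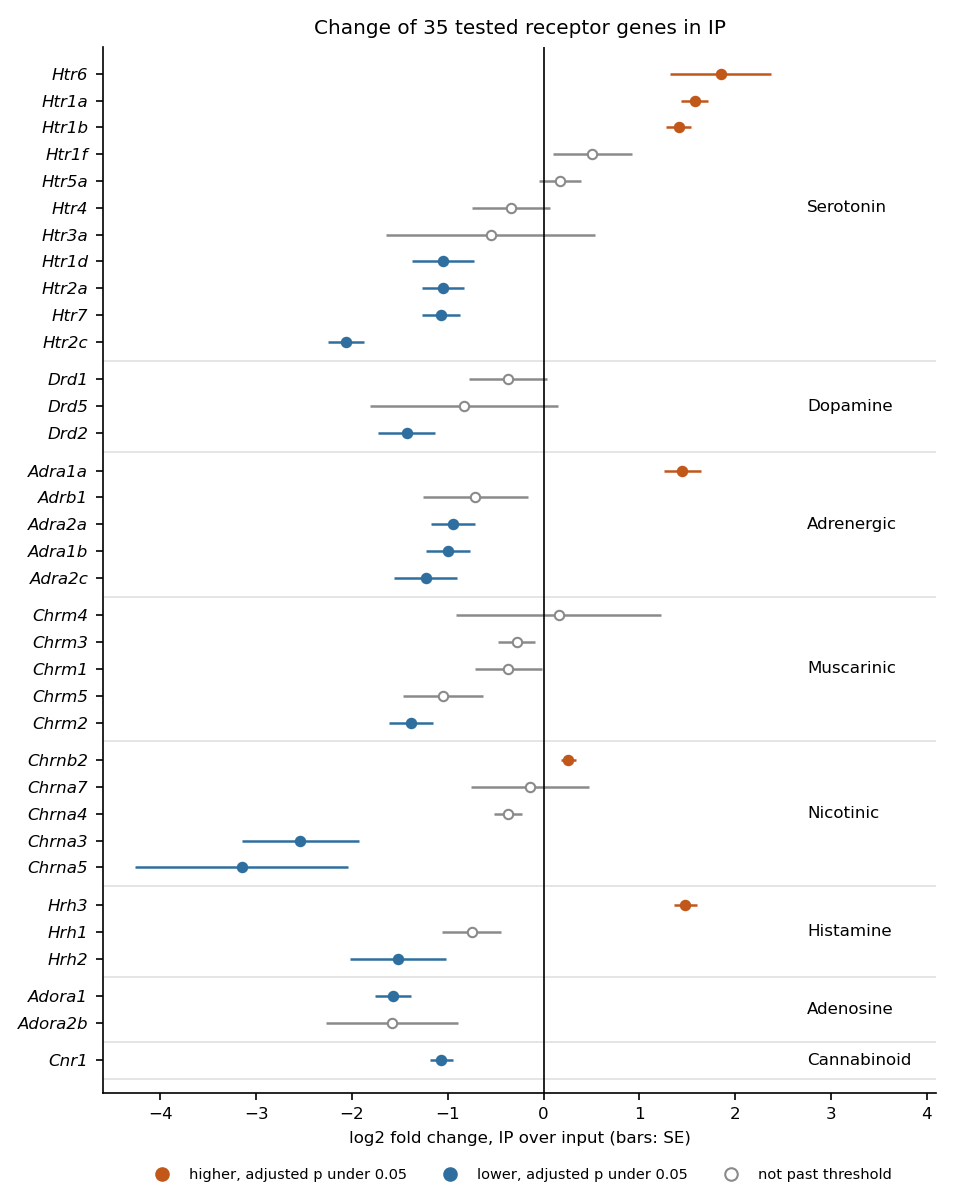
Log2 fold change (IP over input) of the 35 tested receptor genes, grouped by family, with bars of 1 SE from edgeR's quasi-likelihood fit. Filled orange points passed an adjusted p of 0.05 as higher (6 genes), filled blue points passed as lower (14 genes), and open grey points did not pass (15 genes); Htr6 at 1.85 is the highest point and Chrna5 at -3.15 the lowest.

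Hrh3 encodes the Gi/o-coupled histamine receptor that acts as an autoreceptor on histamine neurons and as a heteroreceptor on others (ENSMUSG00000039059, chr2:180099465-180104488, minus strand; GRCm38). Its level was 72.1, 97.1, 88.1 and 71.7 CPM in the 4 IP libraries, against 27.9, 33.8, 27.0 and 29.0 CPM in the input libraries. The lowest IP library exceeded the highest input library by far. The log2 fold change was 1.48 ± 0.12, a 2.79-fold higher level, with an adjusted p of 1.97e-06. Htr1a encodes a Gi/o-coupled serotonin receptor (ENSMUSG00000021721, chr13:105443639-105448122, plus strand). It had 29.5, 36.0, 26.6 and 24.8 CPM in IP, against 9.78, 10.2, 10.4 and 8.65 CPM in input. All IP libraries were again well above all input libraries, and the log2 fold change was 1.58 ± 0.14 (2.99-fold, adjusted p = 4.11e-06). Htr1b encodes a related Gi/o-coupled receptor found on axon terminals (ENSMUSG00000049511, chr9:81628291-81633828, minus strand). It had 23.3, 28.2, 26.6 and 21.1 CPM in IP, against 8.76, 9.34, 9.28 and 10.0 CPM in input. These groups did not overlap, and the log2 fold change was 1.41 ± 0.13 (2.65-fold, adjusted p = 5.22e-06).

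Adra1a, a Gq-coupled noradrenaline receptor (ENSMUSG00000045875, chr14:66635251-66771168, plus strand), had 26.1, 25.0, 36.8 and 18 CPM in IP, against 10.6, 10.2, 8.86 and 9.18 CPM in input. The IP libraries were more spread than the input libraries but all lay above them, and the log2 fold change was 1.45 ± 0.19 (2.73-fold, adjusted p = 1.00e-04). Htr6, a Gs-coupled serotonin receptor, was low in both groups, at 3.04, 0.85, 1.87 and 1.23 CPM in IP and 0.582, 0.337, 0.419 and 0.605 CPM in input. Its fold was uncertain, at a log2 value of 1.85 ± 0.53 (adjusted p = 0.0143), and the call was lost with GC and length offsets and the replicate number as a block (1.63, adjusted p = 0.0501). Chrnb2, the beta subunit most common in brain nicotinic receptors, had 50.4, 42.7, 47.2 and 49.7 CPM in IP, against 40.4, 38.9, 38.0 and 41.9 CPM in input. This was a small shift between groups that only just separated, with a log2 fold change of 0.26 ± 0.08 (1.19-fold, adjusted p = 0.0270). The call was lost with 5 processing alternatives, the smallest value being 0.12 (adjusted p = 0.253) with upper quartile factors, and without IP replicate 1 or input replicate 1, 2 or 3 (adjusted p 0.0513 to 0.0748). Exons of Chrnb2 overlap those of Adar on the opposite strand, which averaged 69.6 CPM in IP and 56.2 CPM in input with a log2 fold change of 0.31 ± 0.10, and reads of the overlap could not be assigned with certainty. Htr1b exons likewise overlap D430036J16Rik, at 5.04 CPM in IP and 2.90 CPM in input.

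**Figure D2:**
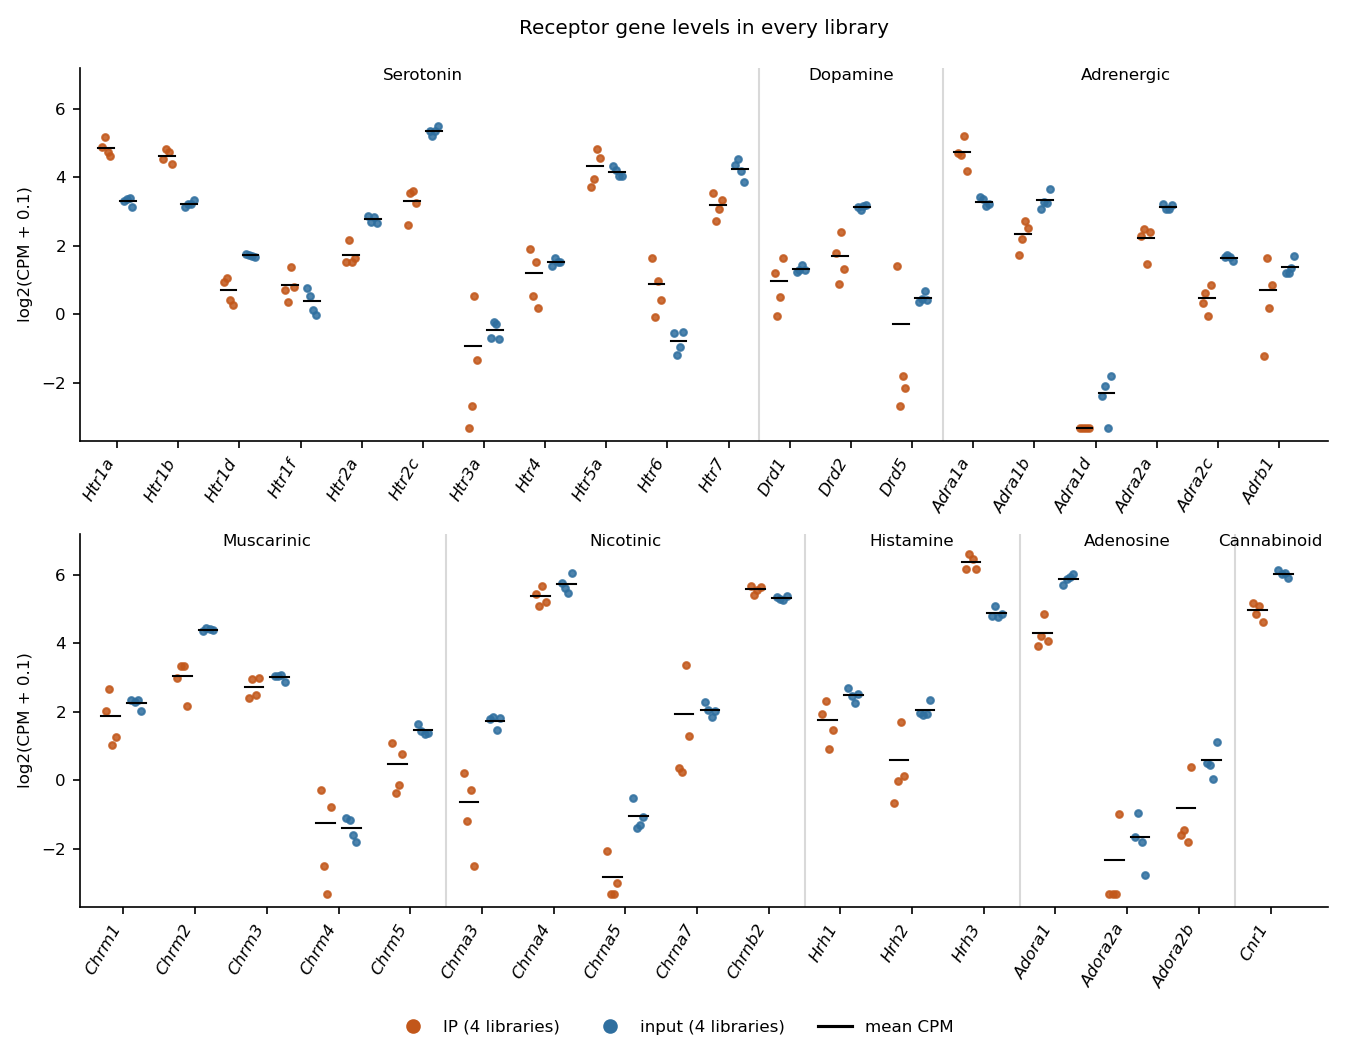
Level of each of the 37 receptor genes in each library, as log2(CPM + 0.1), with IP libraries in orange left of input libraries in blue and a black line at the log2 of the group's mean CPM + 0.1. Hrh3, Htr1a, Htr1b and Adra1a show 4 orange points above 4 blue ones, while Htr2c, Adora1, Cnr1 and Chrm2 show the opposite, and the orange points are the more scattered in most genes.

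Among the other serotonin receptors 4 fell in IP, and Htr2c fell furthest. Htr2c encodes a Gq-coupled receptor long studied for its part in appetite (ENSMUSG00000041380, chrX:146962513-147197277, plus strand). Its level was 6.05, 11.5, 12.1 and 9.52 CPM in IP, against 41.0, 36.9, 40.5 and 45 CPM in input. Every IP library was far below every input library, and the log2 fold change was -2.06 ± 0.19 (4.17-fold lower, adjusted p = 6.07e-06). The choroid plexus is rich in this receptor. Its 5 markers summed to 15.4 to 22.1 CPM in IP and 13.1 to 28.3 CPM in input. Folr1 and Aqp1 were at 0 in all IP libraries but averaged only 0.0727 and 0.0576 CPM in input, and were not tested. Of the 3 tested, Kl was higher, Otx2 was lower and Ttr did not pass. In IP the sum came mainly from Kl and Ttr. Kl averaged 10.4 CPM in IP and 5.22 CPM in input. Ttr ran from 2.65 to 12.8 CPM in IP and from 4.05 to 19.3 CPM in input. The part of the choroid plexus in the Htr2c value was not tested. Htr7, Gs-coupled, had 11.7, 6.48, 8.32 and 10.00 CPM in IP, against 20.5, 23.2, 18.1 and 14.5 CPM in input, with a log2 fold change of -1.07 ± 0.20 (adjusted p = 0.00131). Htr2a, a Gq-coupled relative of Htr2c, averaged 3.26 ± 0.769 CPM in IP and 6.78 ± 0.482 CPM in input, with a log2 fold change of -1.05 ± 0.22 (adjusted p = 0.00233). In both genes the highest IP library stayed below the lowest input library.

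Htr1d, Gi/o-coupled like Htr1a and Htr1b, moved the other way from them. It had 1.82, 1.98, 1.25 and 1.11 CPM in IP, against 3.33, 3.22, 3.16 and 3.09 CPM in input (log2 fold change -1.05 ± 0.32, adjusted p = 0.0181). The groups did not overlap, but the call was lost without any 1 of the 4 input libraries (adjusted p 0.0516 to 0.0605) and with offsets and block together (0.0702). Htr5a, a Gi/o-coupled receptor, followed Htr1a and Htr1b among serotonin receptor genes in CPM per kb in IP, with levels of 13.2, 15.3, 28.1 and 23.5 CPM in IP and 20.1, 18.4, 16.4 and 16.4 CPM in input. Its IP libraries lay on both sides of the input libraries (log2 fold change 0.17 ± 0.22, adjusted p = 0.560). Htr1f, Gi/o-coupled, at 0.51 ± 0.41 (adjusted p = 0.347), and Htr4, Gs-coupled, at -0.34 ± 0.41 (adjusted p = 0.538), did not pass either. Htr3a, the channel subunit, had 0, 0.0567, 1.34 and 0.301 CPM in IP, against 0.527, 0.754, 0.721 and 0.512 CPM in input, so that 1 IP library exceeded all input libraries and the other 3 were below them (log2 fold change -0.55 ± 1.09, adjusted p = 0.715). Without that library, IP replicate 3, the value was -2.44 (adjusted p = 0.0660).

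No dopamine receptor gene was higher in IP. Drd2, the Gi/o-coupled receptor that is also an autoreceptor of dopamine neurons, had 3.36, 1.76, 5.26 and 2.41 CPM in IP, against 8.69, 8.15, 8.79 and 9.02 CPM in input. Its IP libraries were spread from 1.76 to 5.26 CPM but all stayed below the narrow input range. The log2 fold change was -1.43 ± 0.30 (2.70-fold lower, adjusted p = 0.00256). All 4 dopaminergic neuron markers fell as well, beside 20.9% of all tested genes. Their summed level was 42.8 to 68.4 CPM in IP and 119.6 to 166 CPM in input, and their part in the Drd2 value was not tested. The Gs-coupled Drd1 had 2.21, 0.869, 1.31 and 3.06 CPM in IP, against 2.27, 2.36, 2.63 and 2.37 CPM in input, and did not pass (-0.37 ± 0.41, adjusted p = 0.493). Drd5, also Gs-coupled, had 2.55, 0.0567, 0.187 and 0.126 CPM in IP, against 1.2, 1.27, 1.51 and 1.23 CPM in input. IP replicate 1 alone was above the input libraries and the others were far below. The log2 fold change was -0.83 ± 0.98 (adjusted p = 0.522) with all libraries, -3.36 (adjusted p = 0.00127) without IP replicate 1, and -2.26 (adjusted p = 0.0387) with limma-voom. Drd5 met the minimum-count filter in all input libraries but not in all IP libraries. It was tested because of its input level, so these lower values give no support for a direction.

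Among adrenergic receptors Adra1a rose while its Gq-coupled relative Adra1b and the Gi/o-coupled Adra2a and Adra2c fell. Adra1b had 3.25, 4.48, 6.47 and 5.68 CPM in IP, against 8.35, 9.61, 9.44 and 12.5 CPM in input (log2 fold change -1.0 ± 0.23, adjusted p = 0.00461). Adra2a, a presynaptic and postsynaptic inhibitory receptor, had 4.81, 5.55, 2.65 and 5.25 CPM in IP, against 9.18, 8.33, 8.30 and 9.09 CPM in input (-0.94 ± 0.23, adjusted p = 0.00685). Adra2c averaged 1.30 ± 0.374 CPM in IP and 3.06 ± 0.133 CPM in input (-1.23 ± 0.33, adjusted p = 0.0105). None of these 3 genes had overlapping groups. Adrb1, the Gs-coupled beta receptor gene, ran from 0.336 to 3.06 CPM in IP and from 2.21 to 3.16 CPM in input and did not pass (-0.71 ± 0.55, adjusted p = 0.325). Adra1d had no counts in any IP library, which allows up to 0.0432 to 0.0754 CPM per library at 3 counts, and 5, 10, 0 and 8 counts in the input libraries. It was too low to be tested.

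Of the muscarinic receptors only Chrm2 passed the test. Chrm2, Gi/o-coupled and known as an autoreceptor on cholinergic terminals, had 7.87, 9.94, 10.1 and 4.37 CPM in IP, against 20.2, 21.9, 21.1 and 20.7 CPM in input. The input libraries were nearly level and all IP libraries lay well below them (log2 fold change -1.38 ± 0.23, 2.6-fold lower, adjusted p = 4.41e-04). Chrm5, Gq-coupled, had 2.02, 0.680, 0.807 and 1.61 CPM in IP, against 3.04, 2.59, 2.44 and 2.51 CPM in input. Its groups did not overlap, yet it missed the threshold at -1.05 ± 0.42 (adjusted p = 0.0598), and it passed with DESeq2 (0.0244), limma-voom (0.0165), upper quartile factors (0.0358), GC and length offsets (0.0287; 0.0351 with the block) and without IP replicate 1 (-1.36, adjusted p = 0.0180). The Gq-coupled Chrm1 ran from 1.95 to 6.20 CPM in IP and from 3.93 to 4.93 CPM in input (-0.37 ± 0.35, adjusted p = 0.424). Chrm3, the other Gq-coupled muscarinic receptor, ran from 5.20 to 7.89 CPM in IP and from 7.19 to 8.33 CPM in input (-0.28 ± 0.19, adjusted p = 0.255). Both overlapped between groups. Chrm4, Gi/o-coupled, was at or below 0.725 CPM in every library, and its sign depended on the setting (0.16 ± 1.07, adjusted p = 0.920).

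Chrna4 and Chrnb2, whose products pair in the most common nicotinic receptor of the brain, had the highest CPM per kb of the 5 nicotinic genes in both groups. Chrna4 had 43.3, 34.2, 50.9 and 36.8 CPM in IP, against 54.1, 48.5, 44.1 and 66.3 CPM in input. The groups overlapped and Chrna4 did not pass (log2 fold change -0.37 ± 0.15, adjusted p = 0.0675). It passed as lower with DESeq2 (-0.40, adjusted p = 0.0276), upper quartile factors (-0.50, adjusted p = 0.0179), GC and length offsets (-0.43, adjusted p = 0.0410; 0.0335 with the block) and without IP replicate 3 (-0.48, adjusted p = 0.0162). Chrna3, the alpha subunit typical of autonomic ganglia and the habenula, had 1.06, 0.340, 0.721 and 0.0754 CPM in IP, against 3.36, 3.48, 2.67 and 3.46 CPM in input. All IP libraries were far below all input libraries (-2.54 ± 0.61, 5.83-fold lower, adjusted p = 0.00555). Chrna5, an accessory subunit, had 0.141, 0, 0 and 0.0251 CPM in IP, against 0.6, 0.283, 0.302 and 0.372 CPM in input. It had 33, 21, 13 and 16 counts in the input libraries, and its call (-3.15 ± 1.11, adjusted p = 0.0378) rested on few counts. That call was lost without a gene filter (0.0586), without IP replicate 2 (0.0611) or 4 (0.0718) and without any 1 input library (0.0720 to 0.109), while without IP replicate 1 the value was -5.46 (adjusted p = 0.00269). Chrna7, the subunit of homomeric nicotinic channels, had 1.17, 1.08, 10.2 and 2.34 CPM in IP, against 4.78, 4.07, 3.51 and 3.93 CPM in input. Again 1 IP library stood above the input range and the other 3 stood below it. The log2 fold change was -0.14 ± 0.62 (adjusted p = 0.877) with all libraries and -1.42 (adjusted p = 0.00507) without IP replicate 3.

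Hrh1 and Hrh2, the Gq-coupled and Gs-coupled histamine receptor genes, had negative log2 fold changes, unlike Hrh3, and Hrh2 passed the test. Hrh2 had 0.530, 0.888, 3.17 and 1.00 CPM in IP, against 3.80, 3.68, 3.70 and 4.93 CPM in input. All IP libraries were below the input libraries, IP replicate 3 least so (log2 fold change -1.52 ± 0.50, adjusted p = 0.0294). The call was lost without IP replicate 2 (0.0699) or 4 (0.0702) or any 1 input library (0.0583 to 0.0851), and without IP replicate 3 the value was -2.32 (adjusted p = 2.12e-04). Hrh1 had 3.73, 4.91, 1.80 and 2.66 CPM in IP, against 6.31, 5.38, 4.65 and 5.65 CPM in input. It missed the threshold at -0.75 ± 0.31 (adjusted p = 0.0678), with IP replicate 2 above the lowest input library, and it passed without that library (-1.01, adjusted p = 0.0175) and with DESeq2 (0.0345), limma-voom (0.0262), upper quartile factors (0.0369) and the replicate block (-0.83, adjusted p = 0.0462; 0.0427 with offsets). All 3 histaminergic neuron markers fell, beside 20.9% of all tested genes, with a summed level of 22.6 to 35.3 CPM in IP and 76.3 to 86.8 CPM in input. Of these markers Hdc averaged 3.08 CPM in IP and 15.6 CPM in input, and Slc18a2 is also counted among the dopaminergic markers.

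Adora1, the Gi/o-coupled adenosine receptor gene (ENSMUSG00000042429, chr1:134199223-134235431, minus strand), had 14.9, 18.6, 29.0 and 16.6 CPM in IP, against 52.3, 58.1, 61.0 and 64.3 CPM in input. The groups were far apart, and the log2 fold change was -1.57 ± 0.19 (2.97-fold lower, adjusted p = 3.81e-05). Cnr1, the main cannabinoid receptor gene of the brain (ENSMUSG00000044288, chr4:33924593-33948831, plus strand), had 36.3, 29.0, 34.2 and 24.4 CPM in IP, against 70.5, 64.3, 65.8 and 59.7 CPM in input. It too was separated with no overlap (-1.07 ± 0.12, 2.10-fold lower, adjusted p = 3.01e-05), though it was still at 24.4 CPM or more in every IP library. Adora2b, Gs-coupled, had 0.230, 0.264, 0.187 and 1.21 CPM in IP, against 1.33, 1.25, 0.930 and 2.07 CPM in input (-1.58 ± 0.69, adjusted p = 0.0838). IP replicate 4 alone reached the input range, and Adora2b passed without it (-2.61, adjusted p = 0.00311), with DESeq2 (-1.62, adjusted p = 0.0401), limma-voom (-2.06, adjusted p = 0.0140) and the replicate block (-1.95, adjusted p = 0.0404; -2.0 and 0.0368 with offsets). Adora2a, the Gs-coupled receptor gene typical of striatal neurons, was at 0 in 3 IP libraries and 0.402 CPM in IP replicate 4, against 0.0465 to 0.418 CPM in input, and was not tested.

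Levels of different genes were compared per kb of the longest protein-coding transcript. On this scale Hrh3 was the most abundant of the 37 genes in IP, at 30.4 ± 4.61 CPM per kb, and was the 4th in input at 10.9 CPM per kb (SD, n = 4). Its IP level exceeded that of 89.6% of tested genes, and its input level exceeded that of 76.9%. Chrna4 followed at 9.04 ± 1.63 CPM per kb, with an IP range that did not overlap that of Hrh3. Chrnb2 (7.43 ± 0.541), Htr1a (6.52 ± 1.09), Adra1a (6.18 ± 1.81), Cnr1 (5.34 ± 0.922), Htr1b (5.25 ± 0.679) and Adora1 (3.98 ± 1.28 CPM per kb) came next, and neighbours in this order overlapped over the IP libraries. In input the order began with Adora1 at 11.9 CPM per kb, Chrna4 at 11.7 CPM per kb, Cnr1 at 11.2 CPM per kb and Hrh3, and the ranges of these 4 genes overlapped. Adora1 thus stood 8th in IP and 1st in input, Htr1a 4th in IP and 13th in input, and Htr2c 11th in IP and 5th in input. With the median transcript length instead, Hrh3, Chrna4 and Chrnb2 were still the first 3 in IP, and the input order began with Chrna4, Hrh3 and Adora1, which is then 3rd.

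Within families the make-up differed between the groups most plainly for serotonin and adrenergic receptors. Htr1a made up 27.6 ± 4.65% of the serotonin receptor CPM per kb in IP and 8.40 ± 0.577% in input, and Htr1b made up 22.1 ± 2.00% in IP and 7.66 ± 0.719% in input. Htr2c made up 8.41 ± 2.03% in IP and 32.4 ± 3.80% in input (SD, n = 4). Their ranges did not overlap between groups, while the summed serotonin receptor level did, at 96.6 to 114 CPM in IP and 109 to 116 CPM in input. Adra1a was 64.2 ± 10.2% of adrenergic receptor CPM per kb in IP and 25.7 ± 3.05% in input, where Adra1b led with 33.6%. Hrh3 was 96.2 ± 0.279% of histamine receptor CPM per kb in IP and 81.6 ± 2.14% in input. Adora1 made up nearly all of the adenosine family in both groups, 92.8 ± 8.25% in IP and 93.4 ± 1.52% in input, although its level differed. Chrm3 and Chrm2 were close in IP, at 33.7 ± 7.56% and 31.7 ± 11.8% of the muscarinic CPM per kb, while in input Chrm2 led with 45.6 ± 2.25%. The nicotinic shares depend on the length used: Chrnb2 was 41.4% in IP and 30.2% in input by the longest transcript, and 22.6% in IP and 15.6% in input by the median length.

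**Figure D3:**
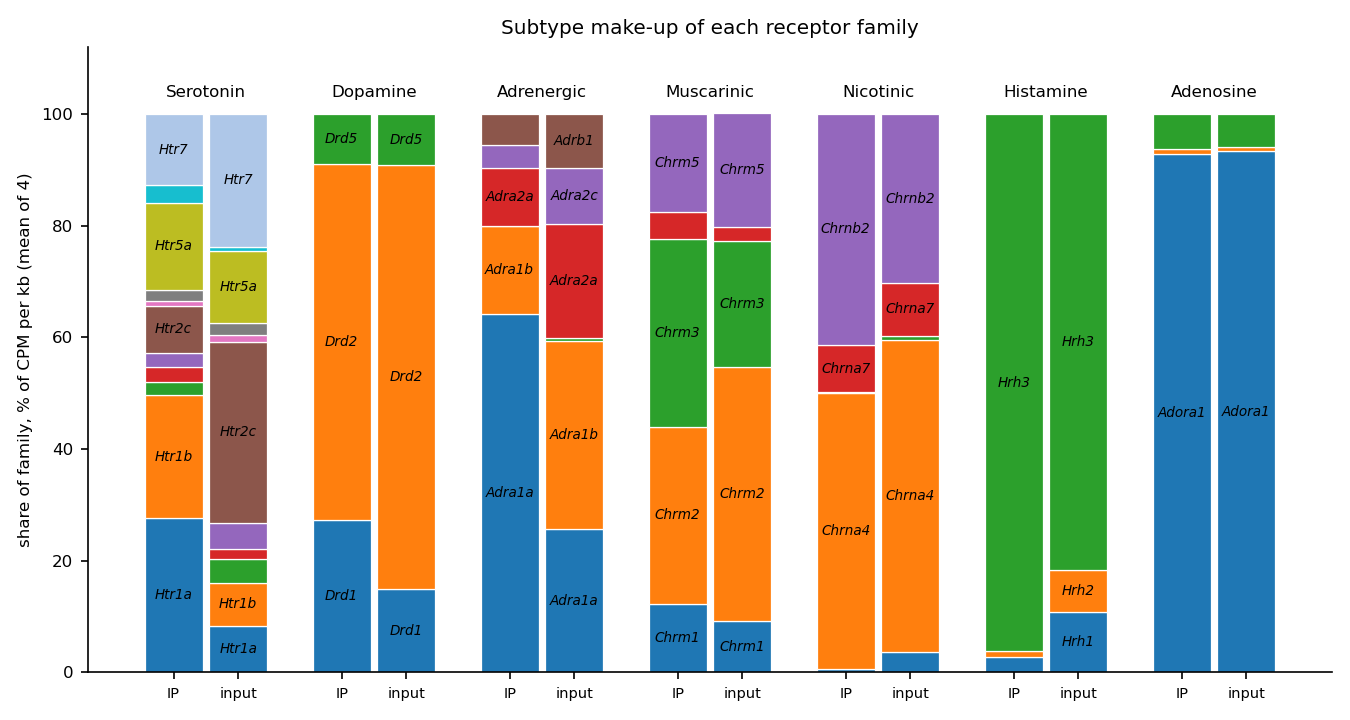
Percent of each family's summed CPM per kb taken by each member, mean of 4 libraries, with the IP bar left of the input bar for the 7 families with more than 1 member and slices under 7% left without a name. Htr1a and Htr1b take 27.6% and 22.1% of the serotonin bar in IP and 8.40% and 7.66% in input, and Adra1a takes 64.2% of the adrenergic bar in IP and 25.7% in input.

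Grouped by coupling, 3 of 13 Gi/o receptor genes rose and 7 fell, with a median log2 fold change of -0.94. These are 23.1% higher and 53.8% lower, beside 24.5% and 20.9% of all tested genes. Of 8 tested Gs receptor genes 1 rose and 2 fell (median -0.77), of 8 tested Gq receptor genes 1 rose and 3 fell (median -0.88), and of 6 channel subunits 1 rose and 2 fell (median -0.46). Over these 3 classes 12.5% to 16.7% were higher and 25.0% to 37.5% lower, so each class held genes of both directions. The 2 channel subunits that fell, Chrna3 and Chrna5, were tested because of their input level. So were the channel subunit Htr3a and the Gs receptor gene Drd5, and the medians of these 2 classes give no support for a direction. Gi/o-coupled receptors made up 61.0 ± 3.48% of the 37 genes' summed CPM per kb in IP and 50.3 ± 1.61% in input, and Hrh3 alone made up 50.0% of the Gi/o sum in IP and 20.5% in input. Gq-coupled receptors made up 14.1 ± 0.458% in IP and 19.5 ± 0.632% in input, Gs-coupled ones 6.23 ± 1.78% in IP and 10.2 ± 0.800% in input, and the channel subunits 18.7 ± 2.82% in IP and 19.9 ± 1.83% in input. These shares depend on the length used: by median transcript length the channel subunits made up 26.5 ± 3.58% in IP and 33.3 ± 3.27% in input, without overlap, and Gq-coupled receptors 9.54 ± 0.385% in IP and 14.6 ± 0.519% in input.

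Receptor genes were measured less evenly in IP than in input. The coefficient of variation was larger in IP for 34 of the 35 tested genes (97.1%, beside 88.6% of all tested genes), with a median of 33.3% in IP and 10.1% in input; over all tested genes it was 24.9% in IP and 9.60% in input. The filter was met in all 8 libraries by 30 genes. Htr3a, Drd5, Chrna3 and Chrna5 met it in all 4 input libraries but not in all 4 IP libraries, so they were tested because of their input level, and Chrm4 met it in fewer than 4 libraries of each group. There were 19 alternatives, 8 of which left out a library. Htr1a, Htr1b, Adra1a and Hrh3 stayed past the threshold as higher in each. So did 11 of the 14 lower genes as lower, the others being Htr1d, Chrna5 and Hrh2.

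**Figure D4:**
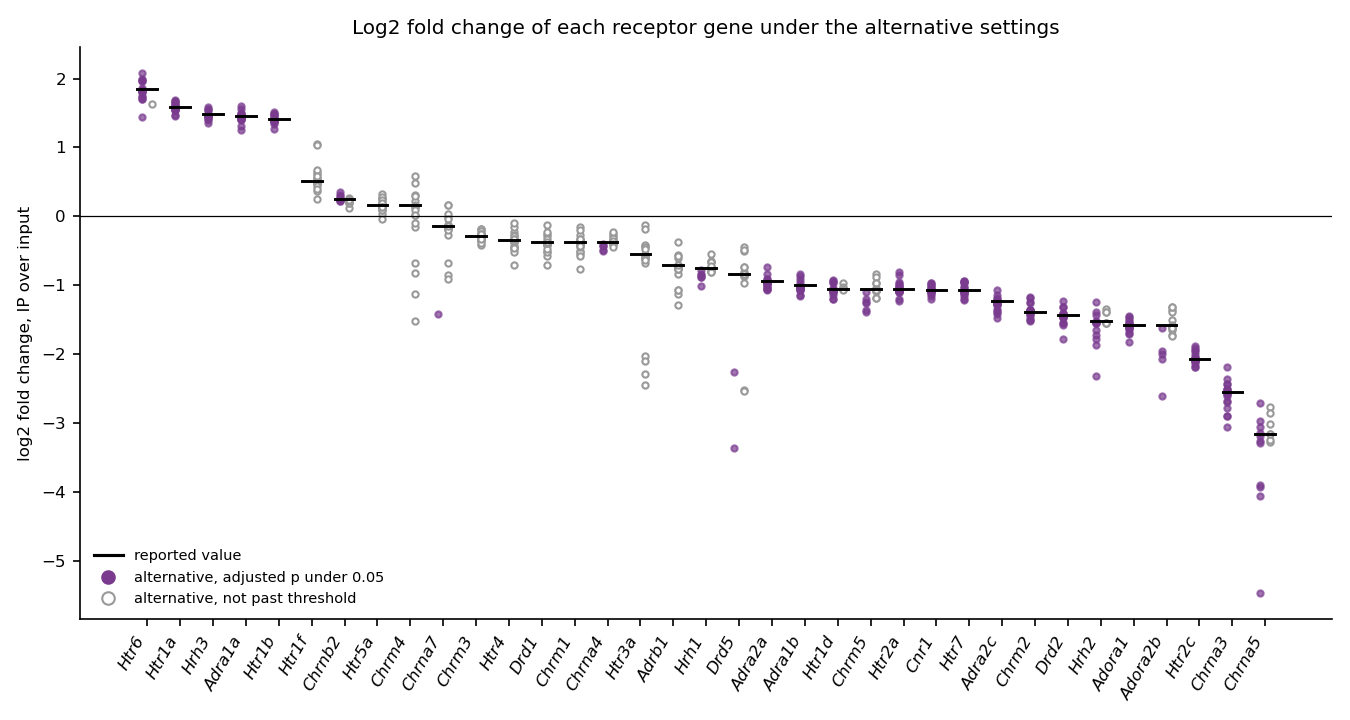
Log2 fold change (IP over input) of the 35 tested receptor genes under 19 alternatives, 8 of which left out a library, ordered by the reported value, which is the black line. Purple points passed an adjusted p of 0.05 and open grey points did not; the points of Hrh3, Htr1a and Htr1b lie close together, while those of Chrna5, Drd5, Htr3a and Chrm4 are spread over more than 2 log2 units.

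Genes that make, move and break down the same transmitters also split. Of 19 monoamine genes 14 were tested, 3 rose and 8 fell (21.4% and 57.1%, beside 24.5% and 20.9% of all tested genes). Gch1, which makes the cofactor of the monoamine hydroxylases, averaged 17.7 ± 0.812 CPM in IP and 3.41 ± 0.357 CPM in input (2.38 ± 0.15, adjusted p = 2.65e-07). Slc29a4, a low-affinity monoamine transporter of the plasma membrane, rose too (1.4 ± 0.11, adjusted p = 1.83e-06). Of the vesicular monoamine transporter genes Slc18a2 fell (-1.85 ± 0.17, adjusted p = 4.93e-06), while Slc18a1 was the third gene that rose (3.12 ± 0.75, adjusted p = 0.00546). Slc18a1 was low and scattered, at 0.477 to 5.07 CPM in IP and 0.182 to 0.372 CPM in input. It did not meet the filter in input replicate 1. It was thus tested because of its IP level, and its part in the count gives no support for a direction. Th, the tyrosine hydroxylase gene, averaged 18.6 ± 2.71 CPM in IP and 45 ± 8.37 CPM in input (-1.27 ± 0.15, adjusted p = 3.77e-05). Of 5 acetylcholine genes 2 rose and 2 fell (40.0% each way, of few genes). Ache, acetylcholinesterase, averaged 69.2 ± 11.1 CPM in IP and 38.8 ± 2.72 CPM in input (0.83 ± 0.11, adjusted p = 1.18e-04). The choline transporter gene Slc5a7 (-2.10 ± 0.47, adjusted p = 0.00361) and Bche, butyrylcholinesterase (-2.82 ± 0.67, adjusted p = 0.00492), fell. Bche met the filter in all input libraries but not in IP replicate 1, where it was at 0.0354 CPM. It was thus tested because of its input level, and its part in the count gives no support for a direction. Slc18a3, the vesicular acetylcholine transporter gene, passed with overlapping groups at an adjusted p of 0.050 (1.93 ± 0.73) and was lost in 13 of 19 alternatives, among them without IP replicate 3 (1.15, adjusted p = 0.177).

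Of 9 adenosine genes 8 were tested, 1 rose and 3 fell (12.5% and 37.5%, beside 24.5% and 20.9% of all tested genes). The ectonucleotidase gene Entpd3 averaged 13.9 CPM in IP and 4.53 CPM in input (log2 fold change 1.62 ± 0.26, adjusted p = 4.36e-04), while its relatives Entpd2 (-2.71 ± 0.27, adjusted p = 9.55e-06) and Entpd1 (-1.28 ± 0.27, adjusted p = 0.00235) fell. Of 8 endocannabinoid genes 1 rose and 2 fell, 12.5% and 25.0%, the second being near the 20.9% of all tested genes. Naaa, an acid amidase that breaks down fatty acid ethanolamides, rose (0.73 ± 0.15, adjusted p = 0.00234). Daglb, a synthetic enzyme of the endocannabinoid 2-arachidonoylglycerol, averaged 5.59 CPM in IP and 15.7 CPM in input (-1.50 ± 0.21, adjusted p = 1.22e-04), and Mgll, which breaks that lipid down, averaged 11.0 CPM in IP and 29.7 CPM in input (-1.44 ± 0.20, adjusted p = 1.36e-04). Of 22 further receptor genes of the same families 10 were tested, none rose and 5 fell (50.0%, beside 20.9% of all tested genes). Of these 10 genes 6, among them 4 of the 5 that fell, met the filter in all 4 input libraries but not in all 4 IP libraries, so they were tested because of their input level and their count gives no support for a direction. Drd3, the dopamine receptor gene, was at or below 0.0756 CPM in every IP library and at 0.326 to 0.744 CPM in input, and Chrnb3, a nicotinic subunit gene, averaged 0.795 CPM in IP and 3.54 CPM in input (-2.15 ± 0.50, adjusted p = 0.00468).

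Most marker lists of other cell types held more lower than higher genes in IP, where 20.9% of all tested genes were lower. Of 4 markers listed for POMC neurons 3 fell and none rose, and of 4 striatal markers 2 fell and 1 rose. All 3 oligodendrocyte precursor markers fell, as did 3 of 6 endothelial and mural and 5 of 6 tanycyte and ependymal markers. All 8 astrocyte markers fell, with a summed level of 779.9 to 1045 CPM in IP and 2583 to 3222 CPM in input. All 6 oligodendrocyte markers fell, with 459 to 651 CPM in IP and 1625 to 2067 CPM in input, and 5 of 6 microglia markers fell, with 10.4 to 13 CPM in IP and 40.1 to 48.2 CPM in input. Of 5 markers listed for other arcuate neurons 4 fell, with 51.6 to 76.9 CPM in IP and 196 to 207 CPM in input. Most of this sum came from 1 gene, Slc17a6, at 42.8 to 63.0 CPM in IP and 163 to 169 CPM in input. The cholinergic list had a sum of 42.9 to 55.8 CPM in IP and 14.8 to 16.7 CPM in input, nearly all of it from Isl1, a transcription factor gene that averaged 46.9 ± 5.69 CPM in IP and 10.6 ± 1.65 CPM in input (2.15 ± 0.14, adjusted p = 3.59e-07). Of the other 3 cholinergic markers Slc18a3 is described above, Slc5a7 fell, and Chat, choline acetyltransferase, averaged 0.438 ± 0.338 CPM in IP and 1.07 ± 0.700 CPM in input and did not pass. Each of these lists had a sum above 0 in every IP library, and their part in the receptor values was not tested.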

How the data were processed

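RNA was measured in 8 TRAP libraries, 4 IP and 4 input, grouped by their titles. The authors deposited estimated counts per gene, not normalized, made with Salmon 0.14.1 on GRCm38.p6 per the submitters' processing notes. Neither the annotation release nor trimming nor the use of strand is stated: each is not given in the sources used here. The receptor genes and other lists were chosen with earlier results of these data known. All 37 receptor genes could be named, and of each related list the 2 genes with the smallest p in each direction past the threshold. Slc18a1 was named as well, beside Slc18a2.

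Counts were rounded and tested in R 4.3.3 with edgeR 4.0.16, by the quasi-likelihood test on genes kept by filterByExpr (minimum count 10), with TMM factors and no covariate. P-values were adjusted by the Benjamini-Hochberg method over 17000 genes, with a threshold of 0.05, and positive log2 fold changes mean higher in IP. The SE of a log2 fold change is its size divided by the square root of F. The script was tested on simulated data. Transcript lengths, GC content and exon overlaps came from GENCODE on GRCm38, with lengths and GC content for 99.4% of tested genes. DESeq2 1.42.0, limma-voom (limma 3.58.1), other scaling factors, filters, GC and length offsets, a replicate block and leaving out each library were tried as alternatives. Overlapping genes on opposite strands, and genes with near copies, have uncertain counts. A limit from 3 counts covers counting error only.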

Additional observations from a re-analysis of the deposited data

Results flagged for a closer look

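In 8 of the 73 groups of 4 libraries examined, 1 library stood apart from the other 3 by more than Dixon's critical ratio for 4 values. Chance flags about 1 in 20 groups. Of these 8 groups 5 were IP and 3 were input. In IP, replicate 1 had 2.55 CPM of Drd5, against 0.0567 to 0.187 CPM in the others. Replicate 2 had 4.40 CPM of Htr2a, against 2.79 to 3.06 CPM. Replicate 3 had 10.2 CPM of Chrna7, against 1.08 to 2.34 CPM. Replicate 4 had 0.402 CPM of Adora2a, against 0, and 1.21 CPM of Adora2b, against 0.187 to 0.264 CPM. In input, replicate 3 had 2.67 CPM of Chrna3, against 3.36 to 3.48 CPM. Replicate 4 had 3.93 CPM of Chrm1, against 4.82 to 4.93 CPM, and 4.93 CPM of Hrh2, against 3.68 to 3.80 CPM. The calls of Htr2a and Chrna3 held without the library that stood apart, and that of Hrh2 was lost (adjusted p = 0.0851, edgeR). Drd5, Chrna7 and Adora2b passed as lower without theirs. In each the library left out was picked because it stood apart, and Drd5 was tested because of its input level. These calls therefore give no support for a direction.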

How the results depend on the processing

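Over 19 alternatives the receptor genes called higher numbered 4 to 6 and those called lower 11 to 18, beside 6 and 14 as reported; leaving out each library in turn gave 5 to 6 higher and 11 to 16 lower. Of 661 pairs of gene and alternative, 598 gave the same call and direction, 28 lost a call, 25 gained one and 10 turned direction, none of these 10 in a called gene. With each library left out in turn, the log2 fold change of Htr5a ran from -0.04 to 0.33, turning without IP replicate 3. That of Chrna7 ran from -1.42 to 0.17, turning without IP replicate 1 (0.16), 2 (0.17) or 4 (0.03). That of Chrm4 ran from -0.68 to 0.58, turning without IP replicate 1 (-0.68) or 4 (-0.10), and was -1.51 with limma-voom, -0.82 with the replicate block, -0.15 with offsets for length and GC, and -1.12 when these were joined to the block. The cause was not tested.

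Upper quartile factors moved the median of all genes by -0.134 and library totals alone by 0.102 on the log2 scale. Of all called genes 54.1% were higher as reported, 43.3% with upper quartile factors and 61.6% with library totals alone. The receptor genes of either call kept their direction under these.

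The labels do not say whether equal replicate numbers in IP and input mark the same pool, and the reported test did not pair them. Correlations of deviations from the group mean were 0.057 to 0.097 between equal numbers and -0.054 to 0.006 between unequal ones. Each library correlated best with its own number. With the replicate number as a block, 6 receptor genes were higher and 16 lower, and 3878 of all genes were higher and 3714 lower, beside 4171 and 3545 without it.

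Depth limits the low genes: 6 of the 35 tested receptor genes and both untested ones averaged under 1 CPM in IP, where 1 CPM is 39.8 to 69.4 counts.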

Other observations

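Of 12 genes for receptor accessory and trafficking proteins, all tested, 7 rose and 3 fell in IP (58.3% and 25.0%, beside 24.5% and 20.9% of all tested genes). Ly6h, a Ly6 family protein that lowers the surface level of nicotinic receptors, averaged 42.8 CPM in IP and 9.63 CPM in input, with a log2 fold change of 2.15 ± 0.13 (edgeR, adjusted p = 2.04e-07). Ly6e, of the same family, averaged 225 CPM in IP and 79.4 CPM in input (1.50 ± 0.07, adjusted p = 5.60e-08). Lynx1, a further Ly6 family protein that dampens nicotinic receptors, averaged 217 CPM in IP and 338 CPM in input (-0.64 ± 0.09, adjusted p = 1.96e-04). Tmem35a, a chaperone needed for the assembly of the Chrna7 channel, averaged 9.94 CPM in IP and 25.5 CPM in input (-1.36 ± 0.14, adjusted p = 1.28e-05).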
